A study of Mus musculus with 9 samples.

Results

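Gene expression at a high and at a low dose of 2-deoxyglucose (2-DG) was compared by RNA sequencing in primary immature neurons of mouse embryos at embryonic day 14. The neurons were grown for 2 days in vitro in medium that held horse serum and fetal bovine serum. They then received 10 mM or 1 mM 2-DG for 6 h. The libraries were chosen by the dose in their labels: 3 at 10 mM and 3 at 1 mM, out of 9 in the series. The other 3 libraries came from untreated control neurons of the same kind. They shared in the filter on low counts, the scaling and the estimate of spread. As a point of reference, their levels and the changes of 1 mM over control are given beside the main comparison. The sources used here give neither the strain and sex of the embryos nor the brain region. By its title the series is concerned with how stress of the endoplasmic reticulum (ER), acting through the transcription factor ATF4, bears on the Bdnf gene. The comparison asks which genes differed between a dose that already acts on the cells and a dose 10 times as high.

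2-DG is a glucose analogue that enters cells through glucose transporters and is phosphorylated by hexokinase, after which it blocks the next step of glycolysis. It also resembles mannose, and is built into the lipid-linked precursors of N-glycans, so that proteins fold poorly in the ER. Such folding stress is sensed by the kinase PERK, which raises translation of ATF4, and by ATF6 and IRE1, which raise ER chaperones. Phosphorylated hexoses, 2-DG phosphate among them, are also sensed by the transcription factor MondoA, whose best known targets are Txnip and Arrdc4.

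Gene counts summed to 45.4, 43.3 and 48.2 M reads in the 10 mM libraries and to 47.7, 40.6 and 43.8 M in the 1 mM libraries, for replicates 1, 2 and 3. Rn45s, the precursor of ribosomal RNA, took 0.534 to 0.563% of counts at 10 mM and 0.589 to 0.884% at 1 mM, highest in the 1 mM replicate 2 library. On principal component 1 of the 9 libraries, with 51.7% of the variance, the 10 mM libraries lay between 32.2 and 36.7 and the 1 mM libraries between -1.61 and 1.395. The controls lay between -34.6 and -34.2. Component 2, with 14.4%, separated the replicate numbers, and libraries of the same number deviated together, so the number was kept as a block in the fit. The labelled cell type was checked on its markers: the neuronal genes Dcx and Tubb3 had at least 24434 and 90468 reads in each of the 6 libraries. Markers of other cells were present too. The radial glia gene Vim had 17733 to 25390 reads, the astrocyte genes Slc1a2 and Gfap 2700 to 3110 and 195 to 333, and the oligodendrocyte genes Mbp and Mog 820 to 1131 and 0 to 2. The spread between libraries is that of 3 replicates a dose, which the series design calls independent without naming the cultures.

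Of 15153 genes tested, 4648 (30.7%) were higher and 3880 (25.6%) were lower at 10 mM than at 1 mM, 56.3% in all, by edgeR's quasi-likelihood F test with a Benjamini-Hochberg adjusted p under 0.05. Most of these differences were small. The median size among the called genes was 0.268 on the log2 scale, and 60.8% of them differed by less than 1.25-fold. At least 2-fold differences were seen in 67 genes that rose (0.442% of those tested) and in 290 that fell (1.91%). Of the called genes, 4570 of the 4648 higher ones and 3794 of the 3880 lower ones moved the same way in all 3 replicate pairs. CPM values (counts relative to the total of the library, with totals scaled by TMM factors) of the doses did not overlap for 3472 of the higher and 2715 of the lower genes, against 44.6% of all genes tested. With library totals alone in place of TMM factors, 3050 genes were higher and 5453 lower, so the share of calls that were higher was 35.9% in place of 54.5%, and the median log2 fold change of all genes was -0.0774 in place of 0.00392. Without the replicate block the same test called 2655 genes higher and 2076 lower. Throughout, fold changes are 10 mM over 1 mM with their standard error (SE) after ±, and p values are adjusted over all genes tested. The shares of all genes tested, 30.7% higher and 25.6% lower, are the background for the counts of list members below. Among the genes given below with CPM in each library, the doses overlapped for Ttr and Aldoc and for no other. Exons of Aldh1l2, Ccne2, Cebpb, Ddit3, G6pdx, Hacl1, Mrpl36, Nhp2, Nprl3, Ost4, Psph, Rpl12, Slc6a9, Snhg6, Syvn1, Tpi1, Txnip and Yars overlap a tested gene on the opposite strand. Those of Krcc1, Manf, Rpl12, Rps12, Snhg1, Snhg12 and Tm7sf2 overlap one on the same strand (mm10, GENCODE vM21). Whether the counting used strand is not stated, so the reads of such pairs may have been mixed or dropped.

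**Figure D1:**
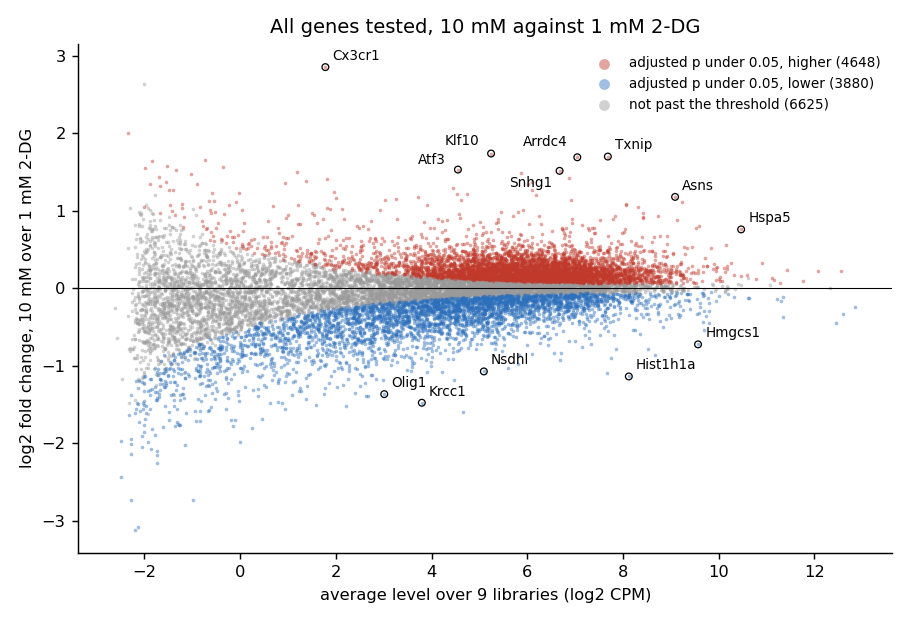
Each point is a gene, with its average level over 9 libraries in log2 CPM on the horizontal axis and the log2 fold change of 10 mM over 1 mM on the vertical axis, coloured by whether it passed the threshold. Rises of over 1 on the log2 scale are few and include Txnip, Arrdc4, Klf10 and Cx3cr1, while falls of that size sit mostly among genes of low level.

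The 12 largest rises (average log2 CPM 1 or more over all 9 libraries) mixed glucose-sensing genes, stress transcription factors and non-coding host transcripts. Klf10, a zinc-finger repressor induced by TGF-beta and by glucose, had 74.6, 65.7 and 85.4 CPM in the 10 mM libraries, against 20.4, 24.6 and 22.9 CPM in the 1 mM libraries (log2 fold change 1.74 ± 0.084, adjusted p = 1.7e-12). Txnip, an arrestin-like protein that inhibits thioredoxin and glucose uptake, had 465, 422 and 496 CPM in the 10 mM libraries, against 132, 162 and 139 CPM in the 1 mM libraries (log2 fold change 1.70 ± 0.17, adjusted p = 4.6e-08). Its relative Arrdc4 had 309, 244 and 317 CPM at 10 mM and 88.4, 89.5 and 91.1 CPM at 1 mM (log2 fold change 1.69 ± 0.063, adjusted p = 5.4e-14). For each of these genes the lowest 10 mM library lay above 2 times the highest 1 mM library. Atf3, a stress-induced repressor of the ATF family, had 52.4, 42.5 and 50.98 CPM at 10 mM and 17.00, 13.6 and 20.03 CPM at 1 mM (log2 fold change 1.53 ± 0.071, adjusted p = 1.1e-12). The arginine transporter Slc7a3 had 139, 135 and 135 CPM at 10 mM and 54.2, 49.3 and 57.2 CPM at 1 mM (log2 fold change 1.35 ± 0.062, adjusted p = 1.0e-12). Snhg1 and Snhg12, host transcripts of small nucleolar RNAs, rose by 1.51 ± 0.041 and 1.48 ± 0.049. The focal adhesion scaffold gene Cass4 (1.496 ± 0.13), the ceramide synthase gene Cers3 (1.41 ± 0.13), the cell adhesion gene Cntnap3 (1.29 ± 0.057) and the GABA-B receptor subunit gene Kctd16 (1.24 ± 0.11) completed the rises together with Cx3cr1, described with the cell type markers.

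The 12 largest falls held several genes of mitochondrial and peroxisomal lipid breakdown. Cpt2, which frees acyl groups from carnitine inside mitochondria, had 1.78, 2.09 and 1.65 CPM in the 10 mM libraries, against 4.199, 4.64 and 4.47 CPM in the 1 mM libraries (log2 fold change -1.27 ± 0.12, adjusted p = 1.9e-08). Acad11, an acyl-CoA dehydrogenase, had 2.66, 3.63 and 2.49 CPM at 10 mM and 7.84, 7.92 and 7.07 CPM at 1 mM (log2 fold change -1.39 ± 0.1, adjusted p = 7.3e-10). Hacl1, a peroxisomal lyase of 2-hydroxy and branched acids, had 0.901, 1.26 and 1.32 CPM at 10 mM and 3.64, 2.12 and 3.03 CPM at 1 mM (log2 fold change -1.33 ± 0.19, adjusted p = 3.5e-06). None of these overlapped between the doses. Plin3, a coat protein of lipid droplets, fell by 1.27 ± 0.19, and the acylphosphatase gene Acyp1 had 2.26, 2.54 and 2.27 CPM at 10 mM and 5.79, 6.23 and 6.13 CPM at 1 mM (log2 fold change -1.36 ± 0.11, adjusted p = 1.9e-09). Olig1, a transcription factor of the oligodendrocyte lineage, had 2.59, 3.03 and 3.098 CPM at 10 mM and 8.29, 7.15 and 7.14 CPM at 1 mM (log2 fold change -1.37 ± 0.1, adjusted p = 8.2e-10). The cell cycle phosphatase gene Cdkn3 (-1.33 ± 0.18), the katanin-like gene Katnal2 (-1.29 ± 0.15), Krcc1 (-1.48 ± 0.1), Fhl4 (-1.43 ± 0.16) and Smim18 (-1.27 ± 0.11) were the others that did not overlap. Ttr, which encodes the thyroxine carrier made by choroid plexus, had the largest fall, with 21.8, 7.398 and 3.47 CPM in the 10 mM libraries, against 66.7, 27.7 and 6.63 CPM in the 1 mM libraries (log2 fold change -1.59 ± 0.2, adjusted p = 9.9e-07). Its level differed more between replicate numbers than between doses, the doses overlapped, and without the replicate block it did not pass (adjusted p = 0.22).

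**Figure D2:**
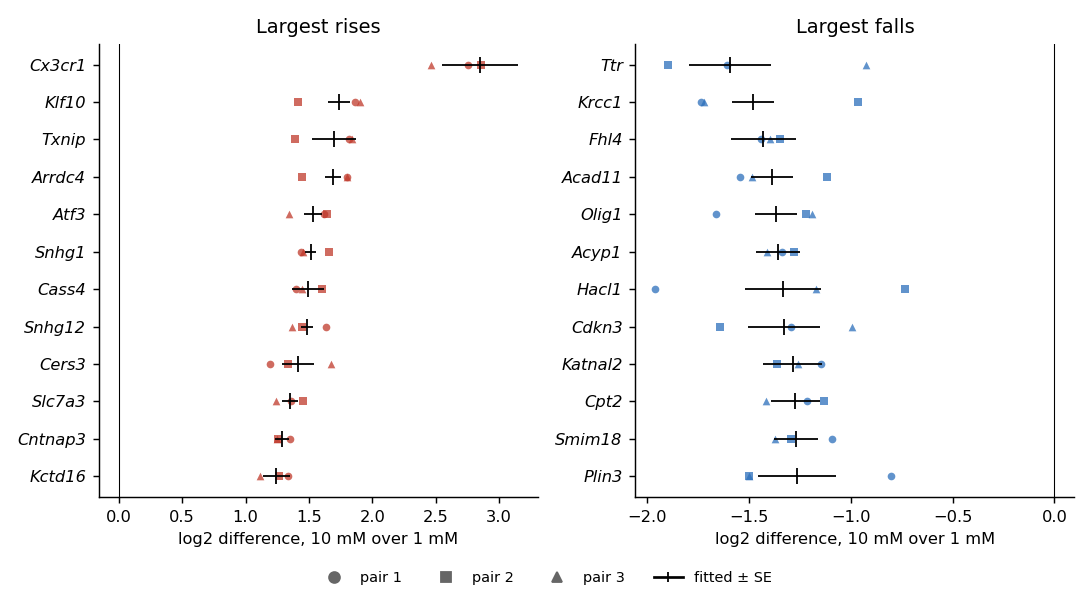
For the 12 genes with the largest rise (left) and the 12 with the largest fall (right), points give the log2 difference of 10 mM over 1 mM within each replicate pair, and the bar gives the fitted log2 fold change with its SE. The pairs of Slc7a3 and Cntnap3 lie close together, while those of Ttr and Hacl1 spread widely.

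Among the genes of glucose sensing, the response was carried by few members. Of 12 listed genes tested, 6 rose and 1 fell, with a median of 0.07 beside 0.00392 over all genes. Without the replicate block 3 rose, and 2 fell with library totals alone or when a control library or the 10 mM replicate 1 library was left out. Txnip, Arrdc4 and Klf10 stood far from the rest, and the next was Arrdc3 at 0.39 ± 0.053. The genes of the sensors themselves, Mlxip (MondoA, 0.04 ± 0.056) and its partner Mlx (0.03 ± 0.04), did not pass (adjusted p = 0.61 and 0.56). Arrdc2, another arrestin-like gene, fell, with 5.54, 7.23 and 5.55 CPM at 10 mM and 9.56, 9.95 and 10.1 CPM at 1 mM (log2 fold change -0.70 ± 0.1, adjusted p = 5.0e-06). In untreated neurons Txnip averaged 11.95 CPM, and its log2 fold change of 1 mM over control was 3.62 ± 0.23. For Klf10 the untreated mean was 15.7 CPM and the same lower step was 0.53 ± 0.097, smaller than its step from 1 mM to 10 mM. A carbohydrate response element, read as CACGNG, then 5 bases of any kind, then CNCGTG, was searched on both strands within 250 bases upstream of the start. It was found for 0 of 11 genes of the list with a promoter in RefSeq and for 4 of 11107 genes tested (0.036%), so these letters are not in the windows of the list. Other spellings of the element were not searched, so the count cannot say whether Txnip, Arrdc4 or the other genes hold such an element. The steps from 0 to 1 mM and from 1 mM to 10 mM share the 1 mM libraries and were not tested against each other. Txnip lies at chromosome 3, bases 96557957 to 96561883, plus strand (mm10, GENCODE vM21), where the antisense gene Gm15441 overlaps it.

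Of the ER stress sensors and their transcription factors, 14 of 21 rose and 1 fell, with a median of 0.17 (7 rose without the replicate block, and 9 rose and 3 fell with library totals alone). Eif2ak3, which encodes PERK, had 182, 169 and 187 CPM in the 10 mM libraries, against 111, 107 and 108 CPM in the 1 mM libraries (log2 fold change 0.73 ± 0.035, adjusted p = 1.7e-12). Xbp1, whose mRNA is spliced by IRE1, had 281, 291 and 294 CPM at 10 mM and 197, 182 and 213 CPM at 1 mM (log2 fold change 0.55 ± 0.05, adjusted p = 1.1e-08). Atf6 had 90.6, 91.9 and 96.4 CPM at 10 mM and 62.3, 60.7 and 69.3 CPM at 1 mM (log2 fold change 0.54 ± 0.035, adjusted p = 1.4e-10). Ern1, which encodes IRE1, moved less (0.17 ± 0.061). The amino acid sensor kinase GCN2, Eif2ak4, also moved little (0.14 ± 0.043), and the gene of the double-stranded RNA sensor PKR, Eif2ak2, did not pass (-0.14 ± 0.096, adjusted p = 0.23). Creb3l4, the member that fell, had at most 0.314 CPM in these libraries. Its call was lost without the 1 mM replicate 1 library (log2 fold change -1.46), without that of replicate 2 at 1 mM (-1.34) or at 10 mM (-1.20), and without the 10 mM replicate 3 library (-1.51). The lower count of the list moved between 0 and 2 when single libraries were left out.

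Atf4 itself had 936, 864 and 998 CPM in the 10 mM libraries, against 689, 509 and 765 CPM in the 1 mM libraries (log2 fold change 0.53 ± 0.048, adjusted p = 1.1e-08). Its partner Ddit3, which encodes CHOP, had 148, 148 and 154 CPM at 10 mM and 106, 79.9 and 114 CPM at 1 mM (log2 fold change 0.60 ± 0.062, adjusted p = 7.4e-08). For both genes replicate 2 was lowest at 1 mM, and the doses did not overlap. Untreated means were 275 CPM for Atf4 and 13.2 CPM for Ddit3, and the log2 fold changes of 1 mM over control were 1.25 ± 0.049 and 2.91 ± 0.079, so for both the step from 0 to 1 mM had the larger value.

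Targets of ATF4 and CHOP rose as a group: 37 of 42 were higher and 2 lower, with a median of 0.69 on the log2 scale. The 2 lower members, Cth and Map1lc3b, had -0.25 ± 0.085 and -0.09 ± 0.03, and 0 were lower without either replicate 1 library (1 without the 10 mM replicate 3 library) or without the replicate block. The list holds Atf4 and Ddit3 themselves, and its median for 1 mM over control was 1.93. Its largest rises were Atf3 and Slc7a3, given above, the glycine transporter Slc6a9 (142, 146 and 149 CPM at 10 mM and 63.5, 55.5 and 71.2 CPM at 1 mM, log2 fold change 1.20 ± 0.06, adjusted p = 3.2e-12) and the transcription factor Cebpb (26.7, 24.2 and 26.2 CPM at 10 mM and 10.8, 8.96 and 14.4 CPM at 1 mM, log2 fold change 1.18 ± 0.089, adjusted p = 8.2e-10). The genes that did not pass were Pycr1 (0.04 ± 0.077), Fgf21 (0.18 ± 0.26) and Tnfrsf10b (0.26 ± 0.23).

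Promoters of this group were read to show the element through which ATF4 and CHOP dimers with C/EBP proteins act. The letters TGATGNAA, searched on both strands within 250 bases upstream of the start, were found for 10 of the 36 ATF4 and CHOP targets with a promoter in RefSeq (27.8%), and for 277 of 11107 genes tested with one (2.49%). They were also found for 3 of 12 cytosolic tRNA synthetases (Gars, Aars and Tars). Among the target genes, 8 of the 10 rose, beside 37 of 42 in the whole list, and the others, Pycr1 and Fgf21, did not pass. The list holds known targets of ATF4 and CHOP, so its share with the match is a description and no independent support. A match of letters is a description and no proof of a site. The stretches around the match are shown for 3 genes with large rises, with the match in capitals (RefSeq, GRCm38.p6, each 5′ to 3′ along the strand of the gene). In Atf3 and Gars the match is on the other strand, so the capitals read as its reverse complement.
Atf3, chr1:191183406-191183473, minus strand: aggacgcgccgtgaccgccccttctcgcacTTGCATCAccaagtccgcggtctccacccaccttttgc
Asns, chr6:7693210-7693262, minus strand: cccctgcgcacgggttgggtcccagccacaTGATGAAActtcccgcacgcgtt
Gars, chr6:55037941-55038000, plus strand: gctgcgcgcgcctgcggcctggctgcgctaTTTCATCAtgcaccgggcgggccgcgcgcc

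Several genes of amino acid supply are ATF4 targets as well. Among 31 plasma membrane amino acid transporters, 14 rose and 4 fell (12 and 2 without the replicate block; 12 and 9 with library totals alone). Slc7a5, the light chain of the large neutral amino acid exchanger, had 1177, 1092 and 1244 CPM in the 10 mM libraries, against 538, 476 and 613 CPM in the 1 mM libraries (log2 fold change 1.11 ± 0.041, adjusted p = 5.4e-14). The cationic transporter Slc7a1 had 537, 432 and 563 CPM at 10 mM and 244, 205 and 270.2 CPM at 1 mM (log2 fold change 1.09 ± 0.043, adjusted p = 1.2e-13). In serine, one-carbon, proline and asparagine synthesis the genes divided, 14 higher and 12 lower of 31 (10 and 3 without the replicate block). The rises belonged to asparagine synthetase Asns (1061, 1021 and 1120.3 CPM at 10 mM and 464, 424 and 530.5 CPM at 1 mM, log2 fold change 1.18 ± 0.051, adjusted p = 5.3e-13), to the mitochondrial folate enzymes Mthfd1l (0.98 ± 0.042) and Aldh1l2 (0.93 ± 0.039), and to the serine phosphatase Psph (0.93 ± 0.053). Lower were the proline oxidase Prodh (-0.82 ± 0.17) and the transsulfuration enzyme Cbs (-0.64 ± 0.26).

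Cytosolic tRNA synthetases, which charge tRNAs for translation, rose in 18 of 20 cases, with 1 lower (0 without the replicate block, either replicate 1 library or the 1 mM replicate 3 library, and 2 with library totals alone) and a median of 0.40. Cars, for cysteine, had 510.1, 438 and 527 CPM in the 10 mM libraries, against 245, 197 and 264 CPM in the 1 mM libraries (log2 fold change 1.07 ± 0.056, adjusted p = 5.0e-12). Yars, for tyrosine, had 591, 520.3 and 591 CPM at 10 mM and 317, 275 and 315 CPM at 1 mM (log2 fold change 0.91 ± 0.032, adjusted p = 3.6e-14). Nars rose by 0.88 ± 0.039 and Gars by 0.80 ± 0.036. Exceptions were Dars, for aspartate (-0.09 ± 0.033), which fell, and Qars, for glutamine (-0.01 ± 0.033, adjusted p = 0.85). The mitochondrial synthetases showed no common direction, with 6 higher and 7 lower of 17. Rars2 fell (-0.55 ± 0.067), whereas Aars2 (0.56 ± 0.049) and Wars2 (0.54 ± 0.08) rose.

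**Figure D3:**
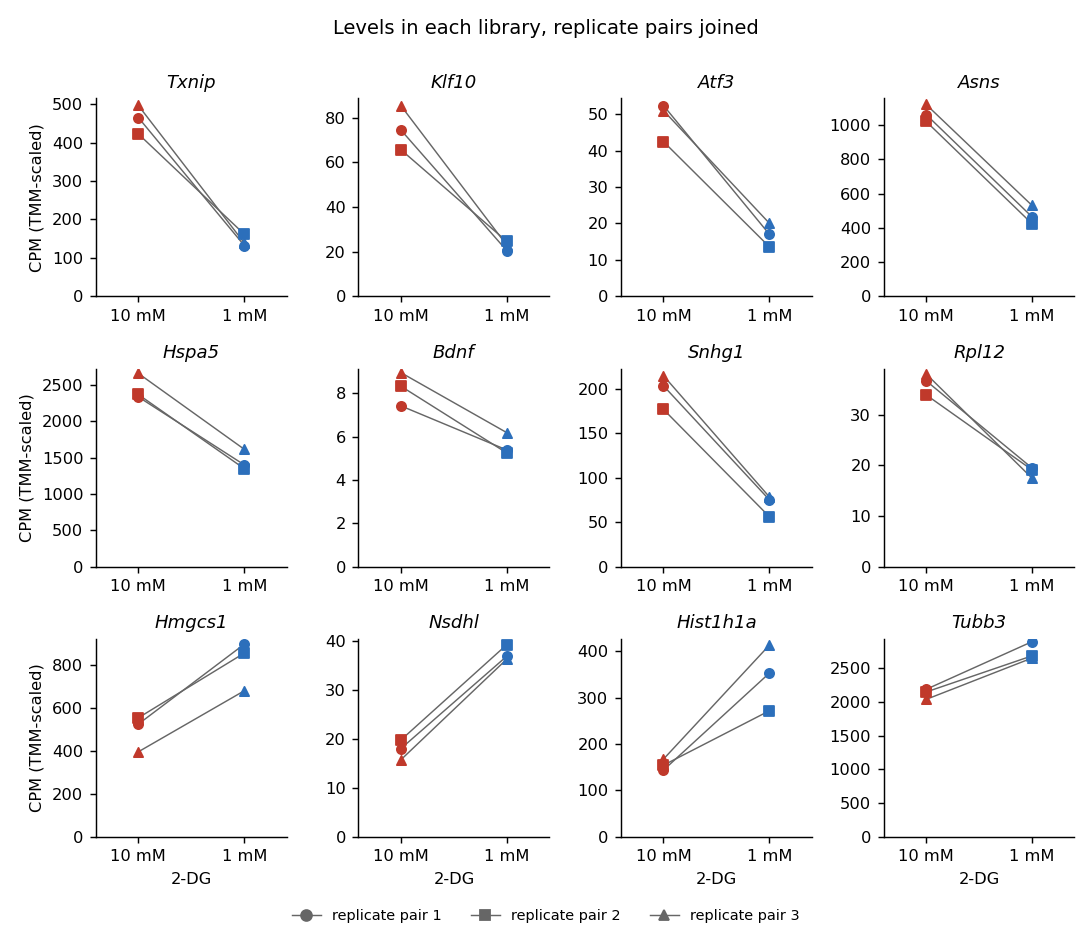
For 12 genes, CPM in each library is shown with 10 mM at the left and 1 mM at the right, and lines join libraries of the same replicate number. The lines of Txnip, Klf10, Atf3, Asns, Hspa5, Bdnf, Snhg1 and Rpl12 all lie higher at 10 mM, and those of Hmgcs1, Nsdhl, Hist1h1a and Tubb3 all lie lower.

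ER chaperones and oxidoreductases formed the other large group of rises: 28 of 34 were higher and 3 lower, with a median of 0.46. Hspa5, the main ER chaperone (BiP), had 2339, 2372 and 2663 CPM in the 10 mM libraries, against 1402, 1349 and 1616 CPM in the 1 mM libraries (log2 fold change 0.76 ± 0.031, adjusted p = 2.0e-13). Its cochaperones rose by like amounts, with 67.1, 64.6 and 77.5 CPM at 10 mM and 36.03, 34.8 and 45.2 CPM at 1 mM for Dnajb9 (log2 fold change 0.85 ± 0.048, adjusted p = 1.4e-11) and 257, 273 and 292 CPM at 10 mM and 154, 150.0 and 177 CPM at 1 mM for Dnajc3 (log2 fold change 0.77 ± 0.035, adjusted p = 8.3e-13). Creld2, a disulfide isomerase-like protein, had 171, 188 and 192 CPM at 10 mM and 104, 107 and 115 CPM at 1 mM (log2 fold change 0.76 ± 0.032, adjusted p = 3.2e-13). The doses did not overlap for any of these 4 genes. The members that fell were Cnpy2 (-0.35 ± 0.039), Dnajc10 (-0.24 ± 0.037) and Dnajb2 (-0.20 ± 0.045). In untreated neurons Hspa5 averaged 346 CPM, and its step to 1 mM was 2.07 ± 0.032.

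These genes are known targets of ATF6 and XBP1 through the ER stress response element, which reads CCAAT, then 9 bases of any kind, then CCACG. It was searched on both strands in the same windows and found for 7 of the 28 chaperone genes with a promoter in RefSeq (25% of them) and for 19 of 11107 genes tested (0.171%). All 7 (Canx, Pdia6, Hsp90b1, Calr, Hspa5, Creld2 and Dnajc3) rose, by 0.39 to 0.77 on the log2 scale. In the whole list 28 of 34 rose, so rises were not limited to genes with the match. The list holds known targets of this element, so its share with the match is a description and no independent support. The element was also found for 2 of 19 ER-associated degradation genes (10.5%), Syvn1, which rose, and Derl3, which did not pass (-0.27 ± 0.12, adjusted p = 0.067). The stretch around the match is printed for the 3 chaperone genes with the match that rose most, the match in capitals (RefSeq, GRCm38.p6). In Creld2 the match is on the antisense strand, so its capitals read as the reverse complement.
Hspa5, chr2:34771995-34772073, plus strand: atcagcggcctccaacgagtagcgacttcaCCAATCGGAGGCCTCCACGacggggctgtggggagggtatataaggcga
Dnajc3, chr14:118937797-118937875, plus strand: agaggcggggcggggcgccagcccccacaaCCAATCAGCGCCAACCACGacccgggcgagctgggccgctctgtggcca
Creld2, chr15:88819490-88819568, plus strand: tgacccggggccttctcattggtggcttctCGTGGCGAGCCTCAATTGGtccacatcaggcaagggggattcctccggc

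Other steps of the secretory pathway moved the same way by smaller amounts. Of 28 genes of ER-associated degradation, 22 rose and 1 fell (Edem2, -0.15 ± 0.044), with a median of 0.28. The lower count was 0 without the replicate block, 3 with library totals alone, 0 without the 1 mM replicate 3 library and 2 without the control library of replicate 2 or 3. Herpud1, which assembles the ubiquitin ligase complex, had 579, 609 and 634 CPM in the 10 mM libraries, against 300.4, 247 and 335 CPM in the 1 mM libraries (log2 fold change 1.05 ± 0.049, adjusted p = 1.3e-12). The ligase gene Syvn1 had 61.6, 67.3 and 66.8 CPM at 10 mM and 43.1, 43.8 and 43.1 CPM at 1 mM (log2 fold change 0.59 ± 0.042, adjusted p = 4.1e-10). The channel protein gene Derl1 rose by 0.46 ± 0.031. For ER translocation and ER to Golgi transport, 39 of 47 rose and 0 fell (1 with library totals alone), with a median of 0.28. Srprb, the beta subunit of the signal recognition particle receptor, had 112, 105 and 121 CPM at 10 mM and 73.4, 77.3 and 79.8 CPM at 1 mM (log2 fold change 0.56 ± 0.039, adjusted p = 2.9e-10). The COPII coat gene Sec24d had 49.8, 59.8 and 61.1 CPM at 10 mM and 36.2, 37.2 and 43.3 CPM at 1 mM (log2 fold change 0.55 ± 0.05, adjusted p = 1.2e-08). Of the oligosaccharyltransferase and glycan trimming genes, 16 of 22 rose and 2 fell (1 without the replicate block and 4 with library totals alone). The glucosidase II subunit Prkcsh rose by 0.57 ± 0.03 and the transferase subunit Rpn1 by 0.55 ± 0.028, while the small subunit Ost4 fell (-0.51 ± 0.067).

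Genes around the growth kinase complex mTORC1 moved in both directions. Among 25 mTORC1 components and stress-induced regulators, 15 rose and 3 fell (5 fell with library totals alone), with a median of 0.22. Deptor, an inhibitor of mTOR, had 4.46, 6.38 and 5.22 CPM in the 10 mM libraries, against 2.44, 2.92 and 2.45 CPM in the 1 mM libraries (log2 fold change 1.03 ± 0.11, adjusted p = 1.6e-07). Sesn2, which holds back mTORC1 when leucine is short, had 287, 255 and 300.1 CPM at 10 mM and 166, 149 and 186 CPM at 1 mM (log2 fold change 0.75 ± 0.054, adjusted p = 4.4e-10). Ddit4, another inhibitor of mTORC1, had 186, 182 and 196 CPM at 10 mM and 119, 106 and 131 CPM at 1 mM (log2 fold change 0.67 ± 0.052, adjusted p = 1.3e-09). Trib3, a pseudokinase that binds ATF4 and AKT, rose by 0.69 ± 0.055. Nprl3, a subunit of the GATOR1 complex, fell, with 21.4, 21.03 and 17.4 CPM at 10 mM and 33.3, 33.1 and 30.7 CPM at 1 mM (log2 fold change -0.70 ± 0.05, adjusted p = 4.1e-10). The gene of the kinase, Mtor, did not pass (-0.02 ± 0.03, adjusted p = 0.54).

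Translation initiation and elongation factors rose in 37 of 44 cases and fell in 2, with a median of 0.20 (22 and 0 without the replicate block). Eif1, which helps select the start codon, had 188, 156 and 178 CPM in the 10 mM libraries, against 108, 91.3 and 104 CPM in the 1 mM libraries (log2 fold change 0.78 ± 0.035, adjusted p = 6.2e-13). Eif4ebp1, which binds and blocks the cap-binding factor, had 201, 163 and 217 CPM at 10 mM and 117, 96.9 and 131 CPM at 1 mM (log2 fold change 0.75 ± 0.046, adjusted p = 5.3e-11). The eIF2 beta subunit gene Eif2s2 had 263, 234 and 287 CPM at 10 mM and 165, 132 and 182 CPM at 1 mM (log2 fold change 0.71 ± 0.038, adjusted p = 7.0e-12). Cytosolic ribosomal proteins rose in 59 of 79 cases and fell in 0, with a median of 0.21 (34 rose without the replicate block). Rpl12 had 36.7, 33.9 and 38.1 CPM at 10 mM and 19.5, 19.1 and 17.5 CPM at 1 mM (log2 fold change 0.96 ± 0.056, adjusted p = 2.8e-11). Rpl10a had 47.1, 46.7 and 50.8 CPM at 10 mM and 28.7, 26.3 and 25.2 CPM at 1 mM (log2 fold change 0.85 ± 0.05, adjusted p = 2.9e-11). These 2 stood apart from the other ribosomal protein genes, whose highest were Rpl3 at 0.64 ± 0.065 and Rps12 at 0.51 ± 0.066. Ribosomal protein genes have many near-identical pseudogenes, which the counting could have split or dropped, so their levels are uncertain to that extent. Ribosome biogenesis genes rose in 34 of 45 cases (16 without the replicate block) and 1 of them fell (5 with library totals alone, 3 without the 10 mM replicate 2 library, 2 without the 1 mM one). The RNA polymerase I and III subunit Polr1c rose by 0.60 ± 0.034 and the small-subunit processing factor Utp14a by 0.62 ± 0.039. Nhp2, a core protein of H/ACA particles, fell, with 27.5, 23.1 and 25.7 CPM at 10 mM and 35.6, 35.8 and 38.9 CPM at 1 mM (log2 fold change -0.53 ± 0.05, adjusted p = 2.2e-08).

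Host transcripts of small nucleolar RNAs showed some of the largest rises. Of 12 tested, 8 rose and 0 fell (1 with library totals alone), with a median of 0.55. Snhg1 had 203, 177 and 214 CPM in the 10 mM libraries, against 74.9, 55.9 and 78.1 CPM in the 1 mM libraries (log2 fold change 1.51 ± 0.041, adjusted p = 7.6e-16). Snhg12 had 119, 101 and 124 CPM at 10 mM and 38.4, 37.2 and 48.1 CPM at 1 mM (log2 fold change 1.48 ± 0.049, adjusted p = 1.4e-14). Snhg5 had 218, 186 and 232 CPM at 10 mM and 102, 79.6 and 107 CPM at 1 mM (log2 fold change 1.14 ± 0.056, adjusted p = 2.1e-12) and Snhg6 rose by 0.87 ± 0.065. These transcripts are spliced, hold small nucleolar RNAs in their introns, and are known substrates of nonsense-mediated decay. The small nucleolar RNAs counted as genes of their own had a median of 0.214, with 10 of 88 higher and 1 lower. Factors of nonsense-mediated decay rose in 12 of 16 cases and fell in 1 (Magoh, -0.13 ± 0.038; 0 without the replicate block, 3 with library totals alone, 2 without the 10 mM replicate 2 library, 0 without the 1 mM replicate 3 library). Smg9, a cofactor of the kinase SMG1, had 84.8, 68.9 and 88.1 CPM at 10 mM and 54.8, 42.4 and 59.2 CPM at 1 mM (log2 fold change 0.63 ± 0.04, adjusted p = 6.7e-11). Upf3a rose by 0.53 ± 0.04, Smg5 by 0.43 ± 0.029 and Upf2 by 0.42 ± 0.039. Splicing factors of the SR and hnRNP families rose in 20 of 30 cases and fell in 5 (10 and 3 without the replicate block). With library totals alone 13 rose. The rises were led by Srsf3 (510.2, 430.0 and 539 CPM at 10 mM and 361, 323 and 379 CPM at 1 mM, log2 fold change 0.47 ± 0.031, adjusted p = 1.2e-10) and Srsf6 (0.45 ± 0.025).

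**Figure D4:**
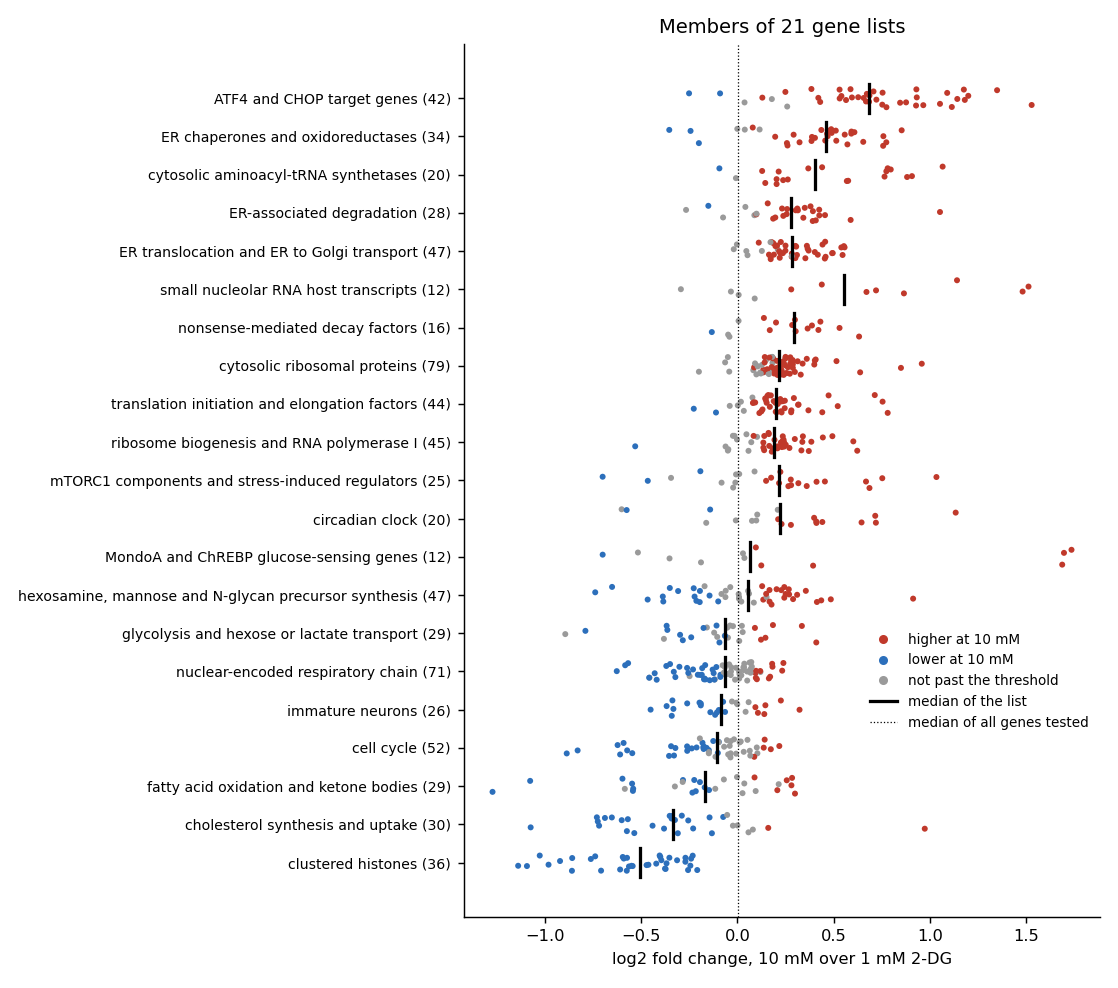
Each point is the log2 fold change of 10 mM over 1 mM of a member of 21 gene lists, coloured by whether it passed the threshold, with a black bar at the median of the list and a dotted line at the median of all genes tested. ATF4 and CHOP targets, ER chaperones and tRNA synthetases lie mostly to the right, cholesterol synthesis and clustered histones mostly to the left.

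Genes of cholesterol synthesis and uptake, the classic targets of SREBP2, were lower at the higher dose: 23 of 30 fell and 2 rose, with a median of -0.33. Nsdhl, a sterol decarboxylating dehydrogenase, had 18.04, 19.8 and 15.8 CPM in the 10 mM libraries, against 36.98, 39.4 and 36.4 CPM in the 1 mM libraries (log2 fold change -1.08 ± 0.053, adjusted p = 2.1e-12). Hmgcs1, which makes HMG-CoA for the pathway, had 525, 555 and 396 CPM at 10 mM and 899, 857 and 681 CPM at 1 mM (log2 fold change -0.73 ± 0.036, adjusted p = 2.1e-12). The sterol reductase Tm7sf2 had 18.4, 19.99 and 16.3 CPM at 10 mM and 30.6, 32.98 and 27.3 CPM at 1 mM (log2 fold change -0.73 ± 0.052, adjusted p = 4.0e-10). Srebf2, which encodes SREBP2 itself, fell by 0.13 ± 0.034. One of the 2 that rose was Scap (0.16 ± 0.033), the escort protein of SREBP; the other, Npc1l1, had at most 1.52 CPM and did not pass without either replicate 2 library (log2 fold change 0.517 without the 10 mM one and 0.482 without the 1 mM one, 0.97 with all). The step of the list from 0 to 1 mM was a median of -0.16, with 16 of 30 lower. A sterol response element written as TCACNCCAC was searched on both strands in the 250 bases upstream. It was found for 1 of 22 genes of the list with a promoter in RefSeq (4.55%), Hmgcs1, and for 144 of 11107 genes tested (1.3%). That stretch is shown with the match in capitals because Hmgcs1 is the member with the match (RefSeq, GRCm38.p6); for the other members no match says only that these letters are not in the window.
Hmgcs1, chr13:119690184-119690252, plus strand: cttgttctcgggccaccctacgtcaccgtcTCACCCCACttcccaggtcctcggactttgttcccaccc

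Other lipid genes moved in both directions. In fatty acid synthesis and desaturation 8 of 17 fell and 4 rose (7 and 2 without the replicate block), and the desaturases were among the lower genes. Scd1 had 14.8, 20.6 and 16.5 CPM in the 10 mM libraries, against 26.4, 34.6 and 27.6 CPM in the 1 mM libraries (log2 fold change -0.77 ± 0.058, adjusted p = 8.0e-10). Scd2 had 638, 694 and 581 CPM at 10 mM and 888, 869 and 826 CPM at 1 mM (log2 fold change -0.43 ± 0.033, adjusted p = 1.0e-09). Fads2 had 138, 136 and 138 CPM at 10 mM and 184, 183 and 184 CPM at 1 mM (log2 fold change -0.42 ± 0.029, adjusted p = 2.5e-10). Dgat2, which makes triglyceride, rose (0.38 ± 0.056). In fatty acid oxidation and ketone body metabolism 13 of 29 fell and 6 rose (8 and 2 without the replicate block), with a median of -0.17. Beside Cpt2, the electron transfer flavoprotein gene Etfb had 7.72, 7.14 and 8.34 CPM at 10 mM and 17.1, 15.7 and 16.3 CPM at 1 mM (log2 fold change -1.08 ± 0.073, adjusted p = 1.9e-10). The thiolase Acaa2 fell by 0.60 ± 0.061 and the dienoyl-CoA reductase Decr1 by 0.55 ± 0.099.

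Sugar metabolism itself showed small and divided changes. Of 29 genes of glycolysis and of hexose or lactate transport, 6 rose and 10 fell (3 and 5 without the replicate block; 2 and 16 with library totals alone). Pfkfb3, which makes the activator of phosphofructokinase, had 101, 91.4 and 97.2 CPM in the 10 mM libraries, against 73.1, 71.4 and 73.8 CPM in the 1 mM libraries (log2 fold change 0.41 ± 0.038, adjusted p = 1.7e-08). Ldha, the lactate dehydrogenase A chain, had 85.03, 95.2 and 88.03 CPM at 10 mM and 110.4, 126 and 110.5 CPM at 1 mM (log2 fold change -0.37 ± 0.03, adjusted p = 2.9e-09). Tpi1 fell by 0.36 ± 0.041. Aldoc, which is also an astrocyte marker, had 30.2, 15.6 and 23.9 CPM at 10 mM and 48.9, 28.3 and 42.8 CPM at 1 mM (log2 fold change -0.79 ± 0.045, adjusted p = 1.9e-11). Its doses overlapped although each pair was lower at 10 mM. The hexokinases that phosphorylate 2-DG did not pass: Hk1 had 0.01 ± 0.03 and Hk2 -0.07 ± 0.057. The main neuronal glucose transporter Slc2a3 did not pass (-0.02 ± 0.042), and Slc2a1 fell (-0.18 ± 0.062). In the pentose phosphate pathway 5 of 8 fell, G6pdx by 0.25 ± 0.036 among them, and 2 rose. Without the replicate block 3 fell and 0 rose. When single libraries were left out 0 rose as well, except without the 10 mM replicate 3 library, where 1 did.

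Genes that make sugar nucleotides and N-glycan precursors, the pathway that 2-DG enters as a mannose analogue, divided as well, with 20 higher and 14 lower of 47 (13 and 8 without the replicate block; 14 and 17 with library totals alone; 9 lower without either 1 mM library of replicate 1 or 3, and 8 without the 10 mM replicate 1 library). Mgea5, which removes O-linked N-acetylglucosamine from proteins, had 406, 481 and 411 CPM in the 10 mM libraries, against 227, 218 and 244 CPM in the 1 mM libraries (log2 fold change 0.91 ± 0.051, adjusted p = 1.3e-11). In untreated neurons it averaged 367 CPM, so 1 mM lay below both (log2 fold change 1 mM over control -0.68 ± 0.051). Ogt, which adds the same sugar, fell (-0.39 ± 0.026). Alg2, a mannosyltransferase of the lipid-linked precursor, had 129, 121 and 126 CPM at 10 mM and 87.5, 91.6 and 89.4 CPM at 1 mM (log2 fold change 0.49 ± 0.038, adjusted p = 1.2e-09), while Alg8, a later glucosyltransferase, had 3.21, 3.41 and 3.01 CPM at 10 mM and 5.32, 5.19 and 5.55 CPM at 1 mM (log2 fold change -0.74 ± 0.1, adjusted p = 4.5e-06). The N-acetylglucosamine kinase Nagk fell, with 31.1, 30.4 and 27.9 CPM at 10 mM and 46.5, 48.6 and 45.4 CPM at 1 mM (log2 fold change -0.65 ± 0.044, adjusted p = 1.9e-10). Gfpt1, the entry enzyme of hexosamine synthesis, rose by 0.24 ± 0.028.

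Of 71 nuclear-encoded genes of the respiratory chain, 29 were lower and 11 higher (19 and 5 without the replicate block), by small amounts, with a median of -0.07. Uqcr11, a small subunit of complex III, had 32.9, 27.98 and 29.1 CPM in the 10 mM libraries, against 47.2, 48.9 and 43.03 CPM in the 1 mM libraries (log2 fold change -0.63 ± 0.048, adjusted p = 1.1e-09). The complex I subunit Ndufb3 had 17.7, 18.9 and 16.96 CPM at 10 mM and 25.5, 28.7 and 26.1 CPM at 1 mM (log2 fold change -0.58 ± 0.06, adjusted p = 6.8e-08). Mitochondrial ribosomal proteins showed 32 rises and 19 falls in 72 genes (19 and 12 without the replicate block; 22 and 24 with library totals alone). Their largest changes were falls of Mrpl55 (5.94, 7.35 and 6.57 CPM at 10 mM and 12.7, 14.03 and 12.5 CPM at 1 mM, log2 fold change -0.98 ± 0.083, adjusted p = 4.6e-09), Mrpl36 (-0.79 ± 0.067) and Mrpl34 (-0.78 ± 0.064). Of the mitochondrial chaperones, Hspa9, the mitochondrial Hsp70, rose (1021, 918 and 1081 CPM at 10 mM and 726, 598 and 771 CPM at 1 mM, log2 fold change 0.53 ± 0.032, adjusted p = 3.4e-11), and the list had 7 higher and 3 lower of 19 (6 lower with library totals alone).

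Clustered histone genes fell together. All 36 of the list were lower at 10 mM (25 without the replicate block) with a median of -0.51, and under library totals alone all 36 were lower too. Hist1h1a, a linker histone, had 144, 154 and 167 CPM in the 10 mM libraries, against 353, 272 and 414 CPM in the 1 mM libraries (log2 fold change -1.14 ± 0.06, adjusted p = 5.4e-12). Hist1h1b had 106, 88.6 and 114 CPM at 10 mM and 251, 156 and 261 CPM at 1 mM (log2 fold change -1.09 ± 0.052, adjusted p = 1.4e-12). Hist1h2an had 26.3, 26.2 and 27.8 CPM at 10 mM and 60.05, 38.8 and 67.04 CPM at 1 mM (log2 fold change -1.03 ± 0.079, adjusted p = 1.1e-09) and Hist1h2bj fell by 0.98 ± 0.053. In each of the 4 genes the replicate 2 library was lowest at 1 mM. Over all 57 symbols of the histone clusters, a class chosen after values were seen, 55 fell and 0 rose, with a median of -0.527. By type, the median was -0.860 for 5 H1 genes, -0.473 for 13 H2A, -0.570 for 17 H2B, -0.488 for 10 H3 and -0.271 for 12 H4 genes. These transcripts are made in S phase and mostly lack a poly(A) tail, and copies of a type are near-identical, so reads may have been split among them. The summed level of the 36 genes was 4345 to 4708 CPM at 10 mM, against 5362 to 7074 CPM at 1 mM. At 1 mM over control the list had 9 higher and 8 lower.

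Cell cycle genes were lower in 24 of 52 cases and higher in 5 (0 without the replicate block, 3 without the 10 mM replicate 1 or 2 library), with a median of -0.11. The lower count was 9 without the replicate block and 38 with library totals alone. Within this list, the genes with the largest falls act at entry to S phase. The cell cycle phosphatase gene Cdkn3, which is not on the list, fell more (-1.33 ± 0.18). E2f1, a factor that drives S phase genes, had 6.91, 5.098 and 6.500 CPM in the 10 mM libraries, against 12.7, 9.68 and 11.8 CPM in the 1 mM libraries (log2 fold change -0.89 ± 0.073, adjusted p = 2.9e-09). Cyclin E2, Ccne2, had 7.92, 6.900 and 8.41 CPM at 10 mM and 14.3, 11.1 and 16.1 CPM at 1 mM (log2 fold change -0.83 ± 0.069, adjusted p = 3.4e-09). Ccne1 fell by 0.62 ± 0.1 and E2f3 by 0.61 ± 0.058. For Ccne1 and Ccne2 the log2 fold changes of 1 mM over control were -1.19 ± 0.086 and -1.23 ± 0.058. In bulk RNA, fewer dividing cells and less RNA per cell cannot be told apart, here or for the markers below.

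Bdnf, which encodes brain-derived neurotrophic factor, was higher at 10 mM in every pair. It had 7.41, 8.32 and 8.95 CPM in the 10 mM libraries, against 5.38, 5.24 and 6.18 CPM in the 1 mM libraries (log2 fold change 0.55 ± 0.088, adjusted p = 1.9e-05), a 1.47-fold difference with no overlap. Without the replicate block the adjusted p was 0.013. The untreated mean was 3.702 CPM and the log2 fold change of 1 mM over control was 0.60 ± 0.099, close in value to the upper step. Bdnf lies at chromosome 2, bases 109674700 to 109727007, plus strand (mm10, GENCODE vM21). Its promoters and splice forms are not separated in these gene counts. Among 25 neurotrophins, other trophic factors and receptors, 4 rose and 8 fell (3 without the replicate block, 5 without the 10 mM replicate 1 library). Ntf3, neurotrophin 3, fell, with 0.577, 1.04 and 0.693 CPM at 10 mM and 1.55, 1.64 and 1.48 CPM at 1 mM (log2 fold change -1.02 ± 0.21, adjusted p = 3.9e-04). So did Nrtn, neurturin (log2 fold change -1.12 ± 0.33, adjusted p = 0.006). Manf, an ER-resident trophic factor that is also on the chaperone list, rose, with 364, 375 and 407 CPM at 10 mM and 244, 229 and 279 CPM at 1 mM (log2 fold change 0.61 ± 0.037, adjusted p = 5.3e-11). The BDNF receptor Ntrk2 fell slightly (-0.11 ± 0.027), and Ntrk3 rose (0.26 ± 0.043). The activity-regulated gene Npas4, a known driver of Bdnf, had -0.47 ± 0.12, and Fos and Arc did not pass (-0.15 ± 0.098 and -0.17 ± 0.12).

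Other stress and signalling genes moved singly. Of 35 immediate early genes 13 rose and 6 fell (7 and 4 without the replicate block; 10 fell without the 1 mM replicate 2 library; 9 and 9 with library totals alone). Jun had 204, 225 and 208 CPM in the 10 mM libraries, against 117, 127 and 120.0 CPM in the 1 mM libraries (log2 fold change 0.81 ± 0.037, adjusted p = 8.3e-13). Klf4 had 13.1, 12.7 and 16.1 CPM at 10 mM and 8.65, 8.09 and 9.703 CPM at 1 mM (log2 fold change 0.66 ± 0.07, adjusted p = 9.1e-08). The antiproliferative gene Btg2 fell, with 27.3, 33.4 and 30.3 CPM at 10 mM and 43.8, 46.2 and 47.7 CPM at 1 mM (log2 fold change -0.60 ± 0.047, adjusted p = 1.3e-09). Vegfa, an angiogenic factor induced by HIF and by ATF4, had 210.2, 219 and 218 CPM at 10 mM and 115, 112 and 133 CPM at 1 mM (log2 fold change 0.84 ± 0.053, adjusted p = 7.1e-11), in a list of HIF targets with 11 higher and 3 lower of 22 (1 lower without the replicate block and 5 with library totals alone). Among clock genes 11 of 20 rose and 2 fell (1 without the replicate block, without either 1 mM library of replicate 1 or 3, or the 10 mM replicate 3 library). The repressor genes Ciart (15.7, 12.4 and 18.2 CPM at 10 mM and 7.28, 4.35 and 9.77 CPM at 1 mM, log2 fold change 1.13 ± 0.099, adjusted p = 7.0e-09), Cry2 (72.6, 71.1 and 69.7 CPM at 10 mM and 43.7, 43.5 and 42.4 CPM at 1 mM, log2 fold change 0.72 ± 0.038, adjusted p = 5.4e-12) and Nfil3 (0.72 ± 0.053) rose most. In the BCL2 family 6 of 17 rose and 5 fell (5 and 1 without the replicate block, while 10 fell with library totals alone, 3 when either replicate 1 library was left out and 8 when a control library was). Those shares, 35.3% and 29.4%, were near the 30.7% and 25.6% of all genes tested. The neuronal killer gene Hrk had 89.9, 102 and 89.6 CPM at 10 mM and 43.2, 53.9 and 45.9 CPM at 1 mM (log2 fold change 0.98 ± 0.052, adjusted p = 6.7e-12). Bbc3, which encodes PUMA, had 46.6, 58.1 and 45.4 CPM at 10 mM and 26.5, 37.3 and 27.6 CPM at 1 mM (log2 fold change 0.72 ± 0.048, adjusted p = 1.7e-10). Bmf fell (-0.59 ± 0.083), and the protectors Mcl1 (-0.06 ± 0.033) and Bcl2l1 (-0.01 ± 0.031) did not pass. Gdf15, a stress cytokine, had 4.805, 6.76 and 4.46 CPM at 10 mM and 3.06, 2.897 and 2.18 CPM at 1 mM (log2 fold change 0.97 ± 0.12, adjusted p = 1.2e-06). Hmox1, heme oxygenase, had 55.3, 58.7 and 60.2 CPM at 10 mM and 33.4, 34.98 and 37.4 CPM at 1 mM (log2 fold change 0.72 ± 0.071, adjusted p = 3.6e-08).

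The remaining pathway lists were divided, beside 30.7% higher and 25.6% lower over all genes tested. Cholesterol efflux and LXR targets had 2 higher and 3 lower of 12 (6 lower with library totals alone; 1 higher without the replicate block, and 1 or 0 higher without most single libraries). NRF2 targets fell in 15 of 29 cases (8 without the replicate block) and rose in 4 (2 without the 10 mM replicate 2 or the 1 mM replicate 3 library). Gsta4, a glutathione transferase, fell by 0.93 ± 0.067, while Hmox1, given above and also on this list, rose by 0.72 ± 0.071. Autophagy genes rose in 21 of 38 cases and fell in 5 (9 with library totals alone). Uvrag (0.49 ± 0.04) and Atg12 (0.46 ± 0.034) rose, and Ulk2 (-0.37 ± 0.029) and Calcoco1 (-0.40 ± 0.051) fell. The proteasome list had 12 higher and 11 lower of 38 (4 and 5 without the replicate block, 5 and 19 with library totals alone). Its shares, 31.6% and 28.9%, were near those of all genes. The assembly factor Pomp fell (-0.40 ± 0.036). The lysosome list had 18 higher and 9 lower of 39 (5 and 2 without the replicate block; 4 and 10 with library totals alone; 5 lower without the 1 mM replicate 3 library). The heat shock list had 11 higher and 3 lower of 25 (5 and 2 without the replicate block; 7 and 8 with library totals alone), and its regulator gene Hsf1 rose (0.48 ± 0.061). In the AMPK and FOXO list, 12 of 24 were higher and 6 lower (8 and 2 without the replicate block; 9 and 9 with library totals alone). The fasting-response genes Klf15 (-0.99 ± 0.13) and Fbxo32 (-0.69 ± 0.085) fell, and the AMPK subunit Prkaa1 rose (0.33 ± 0.04). The list of p53 targets had 12 higher and 5 lower of 27 (6 and 4 without the replicate block; 8 and 8 with library totals alone; 8 lower without the control replicate 2 library). Synapse and excitability genes were 18 higher and 14 lower of 46 (6 and 2 without the replicate block; 9 and 21 with library totals alone; 9 lower without either replicate 3 library). The glutamate transporter Slc17a6 rose (0.39 ± 0.035) and complexin 1, Cplx1, fell (-0.45 ± 0.045).

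Of 26 markers of immature neurons, 15 were lower and 6 higher, with a median of -0.09 (8 and 1 without the replicate block). The members ranged from -0.45 to 0.32. Sox4 went up in each pair, with 63291, 59417 and 67033 reads at 10 mM and 55459, 47610 and 51627 reads at 1 mM. Tubb3, neuronal beta-tubulin, had 2184, 2145 and 2035 CPM in the 10 mM libraries, against 2892, 2682 and 2649 CPM in the 1 mM libraries (log2 fold change -0.37 ± 0.029, adjusted p = 1.5e-09). Cd24a, a surface protein of young neurons, had 660.4, 715 and 599 CPM at 10 mM and 909.6, 934 and 853 CPM at 1 mM (log2 fold change -0.45 ± 0.03, adjusted p = 1.7e-10). The summed level of the list was 18012 to 19089 CPM at 10 mM and 19680 to 20195 CPM at 1 mM. Radial glia and progenitor markers fell in 8 of 18 cases and rose in 2 (3 and 0 without the replicate block; 1 rose without most single libraries). The list had a median of -0.07 and ranged from -0.90 to 0.28. Its lowest member Fabp7, a fatty acid binding protein of radial glia, had 126, 79.9 and 117 CPM at 10 mM and 220.2, 167 and 208 CPM at 1 mM (log2 fold change -0.90 ± 0.037, adjusted p = 2.6e-13). Neurog2 went the other way in each pair, with 2268, 1822 and 3012 reads at 10 mM and 2203, 1453 and 2309 reads at 1 mM. The summed level of the list was 1490 to 1867 CPM at 10 mM and 1593 to 1996 CPM at 1 mM. Astrocyte markers had 5 lower and 1 higher of 10 (1 and 0 without the block), with 240 to 294 CPM against 266 to 322 CPM in sum. The oligodendrocyte list had 4 lower and 0 higher of 9 (2 and 0 without the block), and 63.5 to 70.3 CPM against 75.5 to 80.3 CPM in sum. Endothelial and pericyte markers had 2 lower and 0 higher of 9 (0 lower without the block; 1 lower without the 1 mM replicate 1 or 3 or the 10 mM replicate 2 library), fibroblast markers 1 and 1 of 13, erythroid markers 1 and 1 of 4, and GABAergic markers 5 and 4 of 16. Without the block the counts were 1 and 0, 0 and 1, and 3 and 2. Leaving out single libraries moved these fibroblast and erythroid counts within 0 to 2, and the GABAergic ones to 3 lower or 2 higher. Of the endothelial genes, Cdh5 and Cldn5 had at most 5 reads in each of the 6 libraries, while Kdr had 352 to 466, Flt1 153 to 253, Esam 39 to 64 and Pecam1 35 to 56. The adult globin genes Hba-a1 and Hbb-bs had 0. The part of these shifts in the pathway results was not tested.

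Cx3cr1, the fractalkine receptor of microglia, had the largest fold change of the 12 rises. It had 2.49, 1.68 and 1.69 CPM in the 10 mM libraries, against 0.331, 0.193 and 0.2695 CPM in the 1 mM libraries (log2 fold change 2.85 ± 0.3, adjusted p = 8.5e-08), from 108, 71 and 78 reads at 10 mM and 16, 8 and 12 reads at 1 mM. Untreated neurons averaged 8.01 CPM, so 10 mM lay between the untreated and the 1 mM level. The level rule for the 12 rises used the average over all 9 libraries, which was 1.78 log2 CPM for Cx3cr1. Its means of 1.96 CPM at 10 mM and 0.265 CPM at 1 mM both lay below a log2 CPM of 1. Cx3cr1 thus met the rule only through the untreated libraries. Of the 19 microglia and macrophage markers, 4 rose and 3 fell (1 and 0 without the replicate block; 2 rose without either replicate 1 library or the 1 mM replicate 2 library), with a median of -0.003. Their sum was 62.5 to 89.4 CPM at 10 mM and 66.3 to 80.8 CPM at 1 mM, and 115 to 171 CPM in untreated neurons. The annotated span of Cx3cr1 (chromosome 9, bases 119901616 to 120069879, minus strand; mm10, GENCODE vM21) includes the neighbours Csrnp1, which rose (0.54 ± 0.1), and Gorasp1, which fell (-0.12 ± 0.046), and a part of their reads in the Cx3cr1 count was not tested.

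The size and sign of the change differed with the level of a gene. In 5 equal bins of genes by average level, from lowest to highest, the median log2 fold change was -0.222, -0.128, 0.00701, 0.0823 and 0.101. Of the 290 falls of at least 2-fold, 234 were in the lowest bin. The share of Rn45s given above, lower at 10 mM, and the TMM factors (0.953 to 0.974 at 10 mM and 1.01 to 1.02 at 1 mM) moved with dose as well, and their part in this pattern was not tested. Antisense RNAs fell in 53 of 137 cases and rose in 10, with a median of -0.39, and intergenic long non-coding RNAs fell in 63 of 159 and rose in 17, with a median of -0.321. Protein-coding genes of low level (an average log2 CPM of 3 or less) had a median of -0.187, with 1031 lower and 256 higher of 3912, and all 13644 protein-coding genes a median of 0.00972. RNA helicase genes named Ddx, a class chosen after values were seen, rose in 28 of 37 cases (75.7%) and fell in 1. Their median level was 6.13 log2 CPM, within bin 4 by level, where 48.1% of genes were higher and 21% lower. In bin 5, the highest, the shares were 56.9% and 18.9%. Neither this class nor the lists above were compared with genes matched for level. By length of the longest transcript, the median was -0.0841 in the shortest of 5 bins (55 to 1940 bases) and 0.0473 in the longest (5309 to 123200 bases). These bins differed in level too, with a median of 3.21 log2 CPM in the shortest and 5.64 in the longest. Among genes in the upper 40% by level, the medians from shortest to longest were 0.0466, 0.095, 0.114, 0.105 and 0.0942. A part of length apart from level was not tested.

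**Figure D5:**
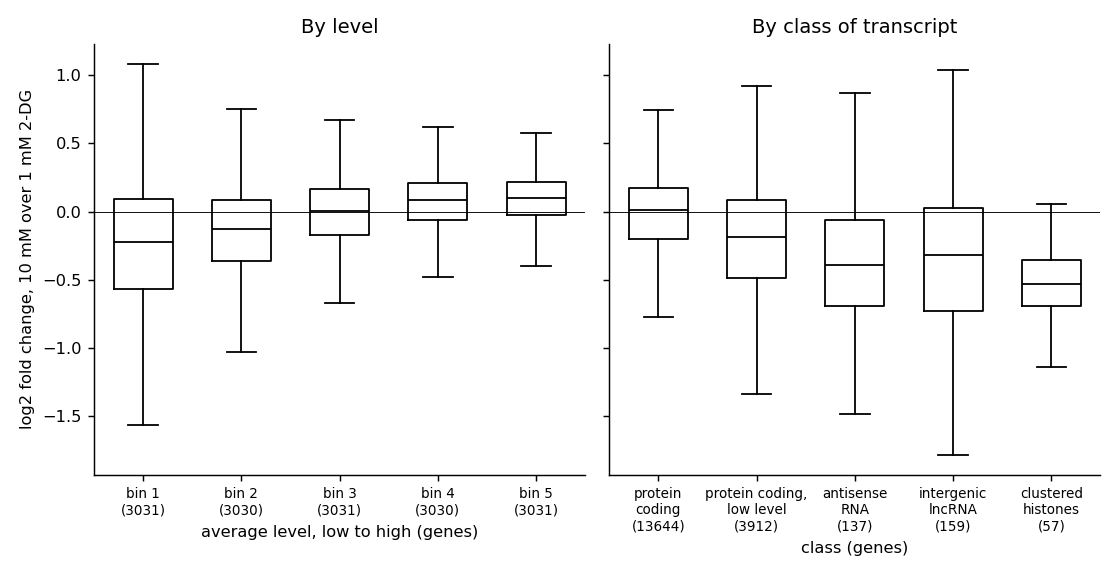
Boxes give the median and quartiles of the log2 fold change of 10 mM over 1 mM, whiskers reach to 1.5 times the quartile range, and single points beyond them are not drawn. The median climbs from -0.222 in the lowest bin by level to 0.101 in the highest (left), and antisense RNAs (-0.39) and clustered histones (-0.527) lie below protein-coding genes (right).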

How the data were processed

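RNA was measured in 9 libraries. Total RNA was amplified to cDNA, made into stranded libraries after removal of ribosomal RNA, sequenced in pairs and aligned to mm10 with STAR 2.4.0, per the labels' protocols. HTSeq and bcl2fastq 2.17 are named too, per the submitters' processing notes. Which annotation was counted, and whether by strand, is not stated in the sources used here. The deposited table holds the authors' raw counts per gene (24061 rows). The 1 row that names no gene (at most 0.000216% of counts) was left out.

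Genes were filtered with filterByExpr (minimum count 10, minimum total 15), scaled by TMM, and fitted to all 9 libraries with dose and replicate number as terms by edgeR 4.0.16 in R 4.3.3. Doses were compared by its two-sided quasi-likelihood F test. Benjamini-Hochberg adjustment ran over 15153 genes, with a threshold of 0.05. SE is the size of the log2 fold change divided by the square root of F. Replicate numbers come from the library titles. Deviations from dose means correlated across genes at 0.351 to 0.518 in the 9 library pairs of the same number and at -0.344 to -0.112 in the 18 of different numbers, so the numbers were taken to pair the libraries. Replicate pairs are compared on log2 CPM with a prior count of 2. Depth was 40.1 M to 48.2 M counts. No molecular identifiers are named, so reads need not be independent molecules.

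Gene positions and overlaps come from GENCODE vM21, matched by symbol for 14463 genes. Promoters come from RefSeq (11107 genes matched). The named genes are Bdnf, Atf4, Ddit3, Hspa5 and Txnip, the 12 largest rises and falls (average log2 CPM 1 or more), and the 4 largest changes in each of 52 lists; other list members, Csrnp1, Gorasp1 and Rn45s are named after their values were seen. The members and lists were chosen with earlier results of these data known. The scripts were tested on simulated data. Alternatives were no block, 6 libraries only, library totals, DESeq2 size factors, DESeq2 1.42.0, other filters, a minimum fold of 1.5, and each library or replicate number left out. Some genes are not reported here.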

Additional observations from a re-analysis of the deposited data

Results flagged for a closer look

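The table holds 1 entry that names no gene, labelled as an enhancer with the words 3 kb and as, whose position and meaning no label explains. It lies outside the comparisons above and was noted because its level was above that of the untreated libraries. It had 84, 66 and 104 reads at 10 mM, against 49, 22 and 44 reads at 1 mM, and 10, 9 and 14 reads in the untreated libraries. As CPM this was 1.92 ± 0.345 at 10 mM, against 0.844 ± 0.272 at 1 mM and 0.252 ± 0.0502 without treatment (SD, n = 3 each).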

How the results depend on the processing

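Without the replicate block, edgeR called 2655 genes higher and 2076 lower, against 4648 and 3880 with it. With no block and only the 6 libraries compared, the counts were 2332 and 2002, and with the block and 6 libraries 4396 and 4002. Of the 210 genes in the rule for named genes, 25 lost their call without the block, among them Ttr, Stmn1, Aqp4 and Eomes, and 0 changed direction. Library totals alone gave 3050 higher and 5453 lower. A test against a minimum fold of 1.5 left 96 higher and 169 lower, and 134 of the 210 genes lost their call. DESeq2 called 4025 higher and 3314 lower, and size factors of DESeq2 in edgeR 4503 and 3982. Leaving out each library or each replicate number in turn gave 3207 to 4352 higher and 3210 to 4295 lower genes. In these runs no named gene changed direction, and the genes that lost a call included Bag3, Bcl2a1b, Creb3l4, Cyp46a1, Foxd1, Mitf, Npc1l1, Osgin1, Rgs5, Tfeb and Tmem119. The cause of these shifts was not tested. Most calls were under 1.25-fold, and 3 libraries a dose limit how firmly single small differences can be read.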
